A study of Mus musculus with 2 samples.

Results

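Chromatin accessibility was described at 9 genes for transcription factors of cortical interneurons: the homeobox genes Dlx1, Dlx2, Dlx5, Dlx6, Lhx6 and Prox1, the SRY-box gene Sox6, the nuclear receptor gene Nr2f2 and the gene of the bHLH-PAS factor Npas1. They were taken by name from the GENCODE M21 annotation, which holds 21938 protein-coding genes. The list sets no threshold on a measured value, but it was chosen with earlier results of these data known. The measurements were DNase-seq, in which DNase I cuts DNA in isolated nuclei and the cuts are sequenced, so that peaks mark regions open to the enzyme. The tissue was right cerebral cortex from male mice at 2 months of age of the hybrid strain B6CASTF1/J, the first-generation offspring of C57BL/6J and CAST/EiJ. There was 1 untreated group of 2 libraries, labelled biological replicate 1 (animal 5) and replicate 2 (animal 6). Since 1 donor record is attached to both libraries in the labels, that they came from separate animals rests on those numbers. With no second group the design holds no contrast, so values are given per library or as mean ± SD (n = 2), beside the same values over all protein-coding genes, and no p-value was computed.

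Interneurons are the GABA-releasing, inhibitory neurons of the cortex. They are born mostly in the ganglionic eminences of the embryonic ventral forebrain and migrate into the cortex, where they are a minority among excitatory neurons and glia. Dlx factors act in the progenitors and young neurons of the eminences, Lhx6 and Sox6 in the lineage from the medial eminence that yields parvalbumin and somatostatin cells, and Nr2f2 and Prox1 in cells of the caudal eminence. The tissue was measured whole, so at each of these genes fewer open cells of a type and less accessibility per cell cannot be told apart.

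A promoter peak was a peak of the stricter deposited set with at least 1 bp within 1000 bp of any annotated transcript start of the gene. The authors' value for each peak is its height, a signal whose unit is not stated, and every strict peak held at least 1 base with a false discovery rate under 0.001. Replicate 1 had 91818 strict peaks with a median height of 0.932 and 394531 footprints, short stretches that the authors called as protected from cutting. Replicate 2 had 75245 strict peaks with a median height of 0.806 and 241645 footprints. How deeply each library was sequenced is unknown here, which leaves each single height without an error of its own, and replicate 1 was the higher library in all of these totals.

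Marker genes of cortical cell types were looked at by their promoter peaks, with those of striatal projection neurons and dentate granule cells, which belong to neighbouring regions. Of 6 markers of cortical excitatory neurons, 6 had a promoter peak in replicate 1 and 4 in replicate 2. Of 4 markers of inhibitory neurons, 2 had one in both libraries. Gad1, whose enzyme makes GABA, was among them, with heights of 1.11 and 1.11. Gad2 and Slc32a1, the vesicular GABA transporter gene, had none. Striatal projection neuron markers, from a tissue that derives from Dlx-expressing progenitors, had a promoter peak at 4 of 5 genes in both libraries. Astrocyte markers had one at 3 of 4 in both, oligodendrocyte markers at 1 of 4 in both, oligodendrocyte precursor markers at 1 of 3 in both and microglial markers at 0 of 4 in both. All 4 microglial genes nevertheless had strict peaks in their gene body or flanks in both libraries, from 1 to 20 in replicate 1 and 3 to 14 in replicate 2. Dentate granule cell markers had one at 3 and 2 of 3, with Calb1 among them, which is also in the list of interneuron calcium-binding proteins used below. Endothelial markers had one at 2 of 4 genes in replicate 1 and at 0 of 4 in replicate 2. The part of these cell types in the values below was not tested.

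Open promoters were found at 5 of the 9 genes in replicate 1 and at 4 in replicate 2 (mean 4.5 ± 0.707 SD, n = 2). Among all protein-coding genes the shares were 63.4% and 59.3%, against 55.6% and 44.4% of the 9 genes, a difference of about 1 gene in each library. Dlx2, Sox6, Nr2f2 and Prox1 had a promoter peak in both libraries and Dlx1 in replicate 1 only, while Dlx5, Dlx6, Lhx6 and Npas1 had none in either. The corresponding share of protein-coding genes with a promoter peak in both libraries was 58.7%. The peaks that were present were low: the median of the tallest promoter peaks was 1.11 in replicate 1 and 0.941 in replicate 2, beside 3.02 and 2.17 for protein-coding genes with a promoter peak. All 9 tallest peaks, 5 in replicate 1 and 4 in replicate 2, lay under the coding median of their library.

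**Figure D1:**
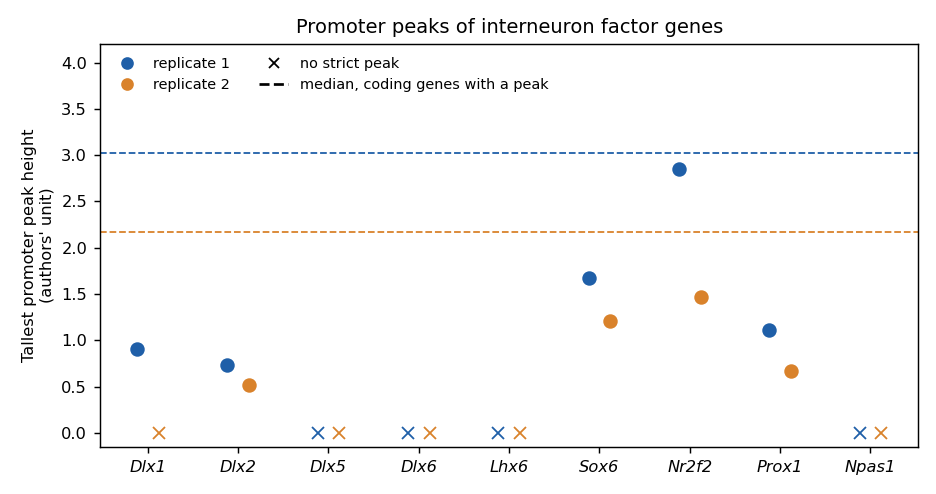
Height of the tallest strict promoter peak (y axis, the authors' signal, linear) of the 9 genes (x axis) in replicates 1 and 2. Crosses at 0 stand for genes with no strict promoter peak, and the dashed lines mark the medians over protein-coding genes with a promoter peak, 3.02 and 2.17. Every point lies under the line of its library.

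Accessibility under less strict thresholds reached more of these promoters than the strict peaks did. Bases with a false discovery rate under 0.05, the only bases that the authors list, were found within 1000 bp of a start at 8 of the 9 genes in replicate 1 and at 6 in replicate 2 (mean 7 ± 1.41 SD, n = 2), where 69.2% and 66.1% of protein-coding genes had one. Footprints lay there at 8 and 5 genes (mean 6.5 ± 2.12 SD, n = 2), where 66.5% and 62.3% of protein-coding genes had one. In the authors' larger peak set, 8 and 6 of the 9 had a promoter peak, beside 68.2% and 65% of protein-coding genes. Npas1 was the 1 gene of the 9 with none of these in either library. Bases under 0.001 lay at 5 and 4 of the 9 promoters, beside 64.3% and 60.2% of protein-coding genes.

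Most of these genes have a start rich in CpG. With the start of a protein-coding transcript called CpG-rich when 1000 bp around it had at least 55% GC and at least 0.6 of the expected CpG, thresholds set after the values were seen, 8 of the 9 genes had such a start, all but Sox6, which has one at a non-coding transcript only. Of those 8 genes, 4 had a promoter peak in replicate 1 and 3 in replicate 2. Over the 9757 protein-coding genes with a CpG-rich start the shares were 94.1% and 89.7%. In both libraries, then, Dlx5, Dlx6, Lhx6 and Npas1 belonged to the small part of CpG-rich genes without a strict promoter peak.

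Dlx1 and Dlx2 encode homeodomain factors that act early in ventral forebrain progenitors and lie as a convergent pair on chromosome 2, Dlx1 at 71528113 to 71533981 on the plus strand and Dlx2 at 71543408 to 71546754 on the minus strand (mm10). At Dlx1, replicate 1 had 2 promoter peaks of heights 0.620 and 0.907, and replicate 2 had 0. The taller had its centre in an exon of Dlx1, 1589 bp downstream of the 5′ end of the gene. That centre was 151 bp upstream of the start of a nonsense-mediated decay transcript. Listed bases at the Dlx1 promoter numbered 1428 in replicate 1 and 149 in replicate 2, with lowest false discovery rates of 4.21e-07 and 0.0146. The larger peak set held a promoter peak of Dlx1 in both libraries, with heights of 0.907 and 0.868, both at the taller of these places, so the libraries were close in its height and differed in whether it entered the strict set.

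At Dlx2 the promoter was covered by many low peaks, 5 in replicate 1 and 6 in replicate 2, with tallest heights of 0.732 and 0.522. These heights stood at the 6.34th and 3.78th percentile of tallest promoter peaks of protein-coding genes. Listed bases took 74.4% of the Dlx2 promoter windows in replicate 1 and 85.7% in replicate 2, the widest cover among the 9 genes in both libraries. The lowest false discovery rates there, 4.99e-09 and 5.35e-09, were nearly equal. Dlx2 was thus open over most of its promoter in both libraries, by breadth more than by height.

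The windows of Dlx1 and Dlx2, each the gene body and 20000 bp on either side, held the same 13 sites, a site being a region covered by strict peaks of 1 or both libraries. There were 8 peaks in replicate 1 and 10 in replicate 2, although replicate 2 had fewer peaks in all, and 5 of these sites were in both libraries. Per 100 kb the Dlx2 window held 18.5 and 23.1 peaks, against medians of 5.62 and 4.56 over protein-coding genes. The Dlx1 count of peaks stood at the 89.0th and 98.6th percentile of protein-coding genes with a window within 2-fold of its length. The tallest site was not at a start: it lay in intergenic DNA with its centre 1266 bp upstream of the Dlx2 start, at heights of 1.17 and 0.722. Its nearer edge was 1167 bp from that start, just outside the 1000 bp limit, while the peak of Nr2f2 described below entered that limit with an edge at 948 bp. Its sequence is shown because it holds a footprint called in both libraries. This and the sequences further on are the plus strand of mm10 from 5′ to 3′, with bases in a footprint of at least 1 library in capitals.
Upstream of Dlx2, chr2:71547921-71548120: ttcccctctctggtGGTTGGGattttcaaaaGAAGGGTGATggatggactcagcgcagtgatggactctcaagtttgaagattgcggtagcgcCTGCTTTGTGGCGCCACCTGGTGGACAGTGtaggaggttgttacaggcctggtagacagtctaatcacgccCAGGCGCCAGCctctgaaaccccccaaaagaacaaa

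Between the genes of the pair 1 further site was called, at 71540666 to 71540729 in replicate 2 only, with a height of 0.292. Within the Dlx2 gene, replicate 2 had strict peaks of 0.369 and 0.307 in exons. In replicate 1 all 260 and 100 bases of these sites were listed too, with lowest rates of 0.000705 and 0.000481, and the larger set had a peak there with a height of 0.551. The window held 42 footprints in replicate 1 and 21 in replicate 2, of which 6 and 6 overlapped one of the other library.

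Dlx5 and Dlx6, which follow Dlx1 and Dlx2 in maturing interneurons, form another convergent pair on chromosome 6, Dlx6 at 6863334 to 6868568 on the plus strand and Dlx5 at 6877805 to 6882085 on the minus strand (mm10). Neither had a strict promoter peak. The Dlx5 promoter held 259 listed bases and 4 footprints in replicate 1 and 0 of both in replicate 2, with a lowest false discovery rate of 0.0115. The Dlx6 promoter held 132 and 145 listed bases, with lowest rates of 0.0104 and 0.0094, and 3 and 1 footprints. In the larger peak set Dlx6 had a promoter peak in both libraries, with heights of 0.964 and 0.691, and Dlx5 had one in replicate 1 with a height of 1.001. Accessibility that missed the strict set was therefore listed at Dlx6 in both libraries and at Dlx5 in 1. By height it was not weaker than some strict promoter peaks. In replicate 1 both heights exceeded those at Dlx1 and Dlx2, 0.907 and 0.732, and in replicate 2 that of Dlx6 exceeded 0.522 at Dlx2. The windows of Dlx5 and Dlx6 shared 1 strict peak, at 6874401 to 6874498 in replicate 2, in intergenic DNA between these genes, with a height of 0.200. That height is at the 0.242nd percentile of strict peaks of the library. Protein-coding genes with windows of like length to that of Dlx5 had a median of 3 peaks in each library.

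Lhx6, a LIM-homeodomain factor of the medial eminence lineage, lies on chromosome 2 from 36081953 to 36105408 on the minus strand (mm10). It had 0 strict peaks in its window of 63456 bp in either library, the only one of the 9 genes so. Counts of 0 stood at the 17.9th and 18.9th percentile of protein-coding genes with windows of like length, whose medians were 4 and 3, so other genes without a peak are common. Replicate 1 listed 643 bases within 1000 bp of Lhx6 starts, with a lowest rate of 0.00105, just above 0.001, and 5 footprints. Of these bases, 444 lay at a start inside the gene, at 36094273, where that lowest rate was found. The other 199 lay at the start of a retained-intron transcript at 36103592. The starts from 36104060 to 36105408, at the 5′ end of the gene, had 0 listed bases and 0 footprints in this library too. Replicate 2 listed 0 bases and 0 footprints across the whole window. In the larger set there were 4 peaks around Lhx6 in replicate 1 and 0 in replicate 2. The tallest within 1000 bp of an annotated start had a height of 0.570.

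**Figure D2:**
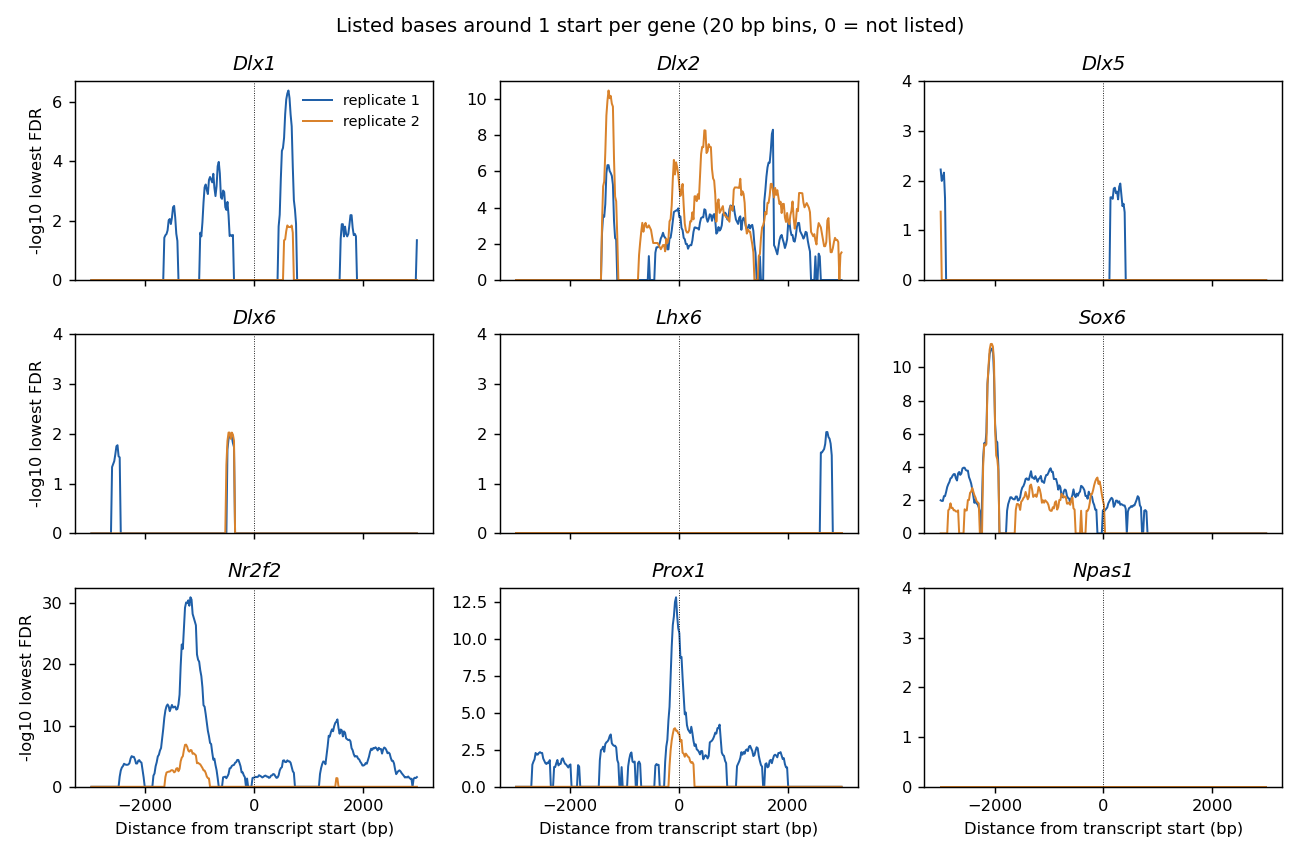
Lowest listed false discovery rate per bin as -log10 (y axis) by distance from a transcript start of each gene in bp (x axis), in replicates 1 and 2. Bins of 20 bp with no listed base are drawn at 0, and the y axes differ between panels. Npas1 stays at 0 in both libraries and Lhx6 in replicate 2. The highest value in replicate 1 is 30.9 at Nr2f2, and in replicate 2 it is 11.4 at Sox6, where Nr2f2 reaches 6.88.

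Sox6 encodes an HMG-box factor needed for the positioning and maturation of medial eminence interneurons. It is also expressed in oligodendrocyte precursors. Its gene spans 567925 bp on chromosome 7, from 115470872 to 116038796 on the minus strand (mm10), with 13 annotated starts. The tallest promoter peak had heights of 1.67 and 1.21, the 25.3rd and 23.8th percentile of tallest promoter peaks of protein-coding genes. It lay 482 bp downstream of the start of a retained-intron transcript inside the gene, and not at the start of the longest form. A promoter peak at 115597521 to 115597800 inside the gene, at the start of a non-coding transcript, also appeared in both libraries, with heights of 1.30 and 0.730. The protein-coding starts at 115824710 and 116031047 had a strict peak within 1000 bp in each library, but at different sites in each. Near the 5′ end of the gene, a peak of 0.764 was called in replicate 1 only.

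The Sox6 window held 16 and 11 strict peaks, where genes of like length had medians of 15 and 13, so the count was ordinary for so long a gene. Of these 7 were shared. The tallest, 4.45 in replicate 1 and 2.20 in replicate 2, lay within 1000 bp of a start of the neighbouring gene 1110004F10Rik and 1485 bp from the nearest Sox6 start. The tallest site in an intron, with its centre 28706 bp downstream of the nearest start, had heights of 1.20 and 0.822. In the 3′ part of the gene an exonic peak at 115474141 to 115474451 had 1.04 and 0.622. The intronic and the promoter peak are shown because each held a footprint called in both libraries.
Sox6 intron, chr7:115966241-115966520: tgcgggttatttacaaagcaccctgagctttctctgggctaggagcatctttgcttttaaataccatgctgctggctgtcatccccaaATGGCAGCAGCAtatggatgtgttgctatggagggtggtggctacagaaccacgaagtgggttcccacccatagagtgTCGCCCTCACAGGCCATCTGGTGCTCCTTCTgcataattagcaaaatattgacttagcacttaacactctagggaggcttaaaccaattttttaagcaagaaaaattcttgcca
Sox6 promoter, chr7:116033021-116033220: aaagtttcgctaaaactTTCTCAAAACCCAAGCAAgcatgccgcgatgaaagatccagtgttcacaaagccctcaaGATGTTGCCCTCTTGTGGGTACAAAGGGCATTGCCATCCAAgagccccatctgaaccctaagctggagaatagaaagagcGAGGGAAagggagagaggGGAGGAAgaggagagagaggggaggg

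Nr2f2 encodes COUP-TFII, a nuclear receptor of caudal eminence interneurons that venous endothelium also expresses. It lies on chromosome 7 from 70351944 to 70366735 on the minus strand (mm10). Here the libraries differed most. The tallest promoter peak, at 70361541 to 70361960, was in both, with heights of 2.85 and 1.47, the 47.1st and 30.7th percentile of tallest promoter peaks and the highest of the 9 genes. Its centre lay 1157 bp upstream of the nearest annotated start, in an intron of the longer form, and only its edge entered the 1000 bp limit.

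Around Nr2f2, replicate 1 had 28 strict peaks and replicate 2 had 4, all of which overlapped a peak of replicate 1. The count in replicate 1 was at the 99.9th percentile of genes with windows of like length, and that in replicate 2 at the 70.4th. Listed bases covered 30.7% and 3.83% of the window. Of the 26 sites, 22 were in replicate 1 only, with heights from 0.275 to 1.43. Of all 21938 protein-coding genes, 29 (0.132%) had an excess of peaks in replicate 1 at least as large as the 24 at Nr2f2, and the median difference was 0. Nr2f1, the paralogue of Nr2f2, had 32 and 11 peaks in its window. Markers of endothelium had promoter peaks only in replicate 1, as given above, at low heights of 0.444 (Cldn5) and 0.507 (Flt1). The median number of strict peaks around the endothelial markers was 4 in replicate 1 and 4.5 in replicate 2. Around genes for deep layer factors of excitatory neurons it was 12.5 and 6.5. The part of any cell type in the difference at Nr2f2 was not tested.

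The sites that both libraries shared at Nr2f2 were lower in replicate 2, by a median ratio of 2.09 over 4 sites, beside 1.38 over the 60789 strict peaks of replicate 1 that overlapped one of replicate 2. One of them, in intergenic DNA 20107 bp downstream of the nearest start, was nearly as tall as the promoter peak, with heights of 2.81 and 1.26. The other shared sites had heights of 0.976 and 0.307 in an intron and of 0.426 and 0.276 upstream of the gene. The sequences of the tallest pair are shown, the promoter peak by its central 300 bases. In these bases 7 footprints of replicate 2 and 4 of replicate 1 lay. They are just beyond 1000 bp from the nearest start, so these footprints are not in the promoter counts above. Within that limit replicate 2 had 0 footprints at Nr2f2.
Downstream of Nr2f2, chr7:70335021-70335240: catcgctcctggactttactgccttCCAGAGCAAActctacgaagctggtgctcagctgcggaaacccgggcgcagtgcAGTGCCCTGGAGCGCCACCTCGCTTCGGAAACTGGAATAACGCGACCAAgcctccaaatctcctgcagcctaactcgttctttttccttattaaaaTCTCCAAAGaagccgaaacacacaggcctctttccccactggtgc
Nr2f2 promoter, chr7:70361601-70361900: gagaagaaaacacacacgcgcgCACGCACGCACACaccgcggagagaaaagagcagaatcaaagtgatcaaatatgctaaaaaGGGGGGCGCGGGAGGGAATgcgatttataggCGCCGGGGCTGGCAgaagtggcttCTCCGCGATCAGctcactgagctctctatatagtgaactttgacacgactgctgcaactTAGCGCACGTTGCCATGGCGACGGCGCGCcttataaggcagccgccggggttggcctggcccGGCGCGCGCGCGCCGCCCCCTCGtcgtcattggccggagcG

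Prox1 encodes a homeobox factor of caudal eminence interneurons that dentate granule cells also express. It lies on chromosome 1 from 190118035 to 190170714 on the minus strand (mm10). Its tallest peak sat on the start itself, with heights of 1.11 and 0.668, the 13.8th and 7.31st percentile of tallest promoter peaks. Listed bases covered 64.2% of the Prox1 promoter windows in replicate 1 and 13.5% in replicate 2, with lowest rates of 1.46e-13 and 0.000108. The 4 other strict peaks in the window, with heights from 0.401 to 0.538, were in replicate 1 only. The window thus had 5 peaks in replicate 1 and 1 in replicate 2, and 31 and 5 footprints.

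Npas1, a bHLH-PAS factor that represses transcription in interneurons, lies on chromosome 7 from 16455721 to 16477728 on the minus strand (mm10). It showed the opposite arrangement to Prox1: its promoter had no strict peak, listed base or footprint in either library, while its window held 7 strict peaks in each, and all 7 were shared. Genes of like length had medians of 4 and 3 peaks, which put Npas1 at the 83.3rd and 92.6th percentile. The tallest lay at the promoter of the neighbouring gene Tmem160, with heights of 3.22 and 2.50, and another peak there had 1.25 and 0.998. In the body of Npas1 a peak in an exon had heights of 2.24 and 1.43 and one in an intron had 1.67 and 1.01. Upstream, between 14239 and 15863 bp from the nearest start, 3 intergenic peaks had heights of 1.03 to 1.11 in replicate 1 and 0.653 to 0.714 in replicate 2. Footprints numbered 21 and 23 in the window. Npas1 was the only one of the 9 genes with more of them in replicate 2. The sequence of the exonic peak is shown as that of the tallest shared site in this window outside promoters. Those of the intronic peak and the farthest upstream peak are shown because they hold a match to the CTCF consensus described below.
Npas1 exon, chr7:16463321-16463500: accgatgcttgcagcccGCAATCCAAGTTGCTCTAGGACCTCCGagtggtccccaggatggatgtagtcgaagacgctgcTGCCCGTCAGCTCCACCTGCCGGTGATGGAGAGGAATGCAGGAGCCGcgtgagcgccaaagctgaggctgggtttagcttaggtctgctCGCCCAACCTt
Npas1 intron, chr7:16465221-16465420: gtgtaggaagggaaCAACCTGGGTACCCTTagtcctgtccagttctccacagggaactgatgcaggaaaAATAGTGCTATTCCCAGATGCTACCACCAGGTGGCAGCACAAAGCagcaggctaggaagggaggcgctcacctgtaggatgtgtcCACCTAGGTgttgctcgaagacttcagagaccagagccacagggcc
Upstream of Npas1, chr7:16493521-16493662: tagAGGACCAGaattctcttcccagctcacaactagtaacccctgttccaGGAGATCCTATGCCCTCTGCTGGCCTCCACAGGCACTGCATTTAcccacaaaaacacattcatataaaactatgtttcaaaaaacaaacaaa

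**Figure D3:**
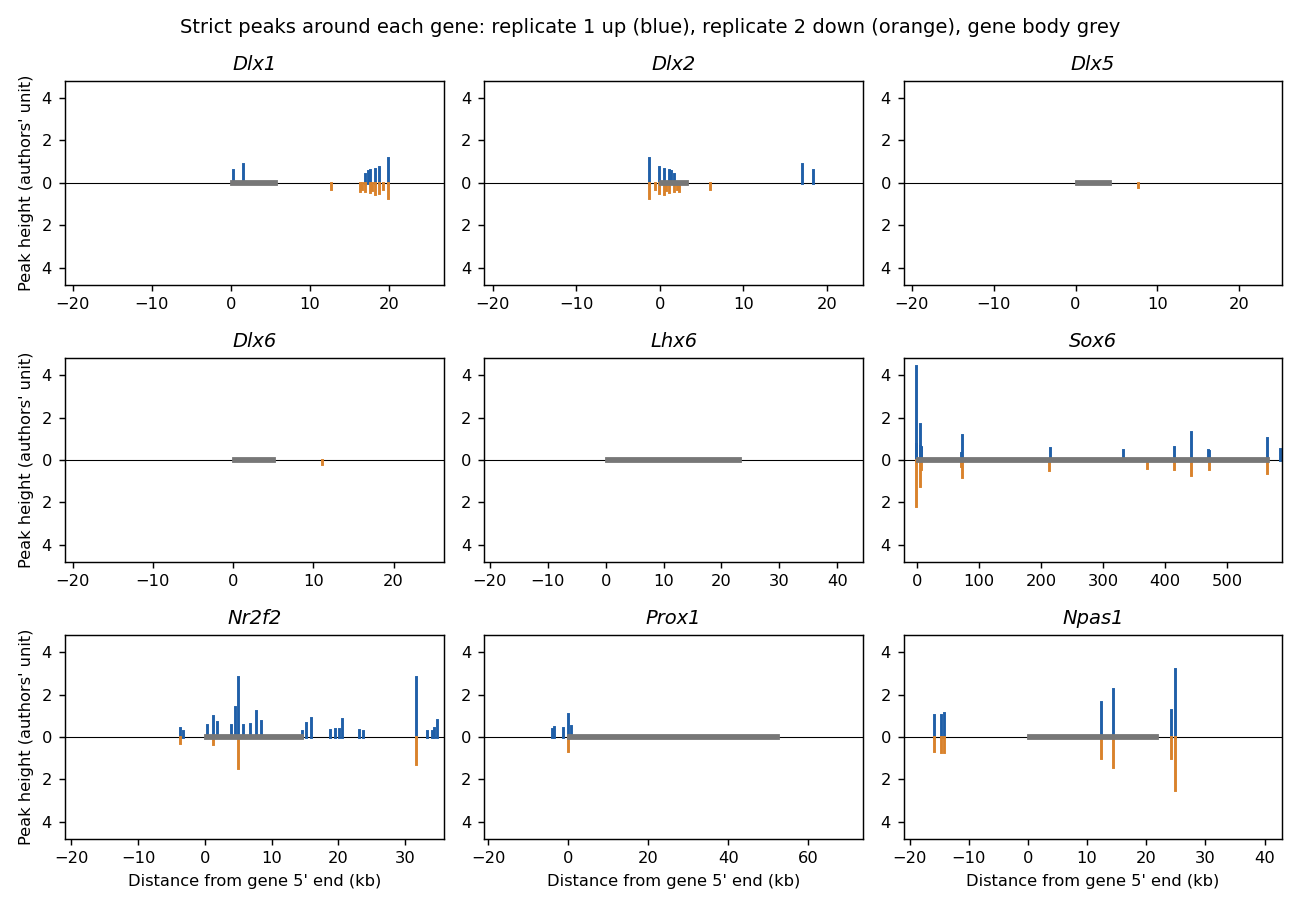
Position of strict peaks around the genes as distance from the 5′ end of the gene (x axis, in kb) with their height (y axis, the authors' signal), with replicate 1 drawn upwards, replicate 2 downwards and the gene body in grey. The dense row at Nr2f2 in replicate 1 has 28 peaks against 4 in replicate 2, and the 7 peaks around Npas1 appear in both.

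Counted once over the overlapping windows, the 9 genes had 72 sites, of which 24 were in both libraries, 38 in replicate 1 only and 10 in replicate 2 only. Of the 48 sites in 1 library, 23 held listed bases in the other, a share that was not computed over all strict peaks. Promoters of the 9 genes held 25 sites, intergenic DNA 25, introns 14, exons 5 and promoters of other protein-coding genes 3, and of the last group all 3 were shared. Replicate 1 had 64 of these peaks, 37.5% of them met by a peak in replicate 2, and replicate 2 had 34, 70.6% of them met by one in replicate 1. Over all strict peaks these shares were 66.2% and 80.8%. Without Nr2f2 the shares for the other genes were 55.6% of 36 peaks and 66.7% of 30 peaks. Heights ranged between 0.275 and 4.45 in replicate 1 and between 0.200 and 2.50 in replicate 2, with 19 and 9 peaks at or above the median height of their library. Shared sites were 1.56 times as high in replicate 1 as in replicate 2 in the median, from 0.975 to 3.18.

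The median number of strict peaks around a gene was 7 in replicate 1 and 4 in replicate 2 (mean 5.5 ± 2.12 SD, n = 2), beside 4 and 3 over protein-coding genes. The genes fell far apart on this measure. Per 100 kb, Nr2f2 had 51.1 and 7.30 peaks, the Dlx1 window 17.4 and 21.8, Npas1 11.3 and 11.3, Prox1 5.39 and 1.08, Sox6 2.63 and 1.81, and Lhx6 0 and 0. Nr2f2, Sox6 and Prox1 had fewer peaks in replicate 2, by 24, 5 and 4, while the Dlx1 and Dlx2 window and Npas1 had as many there or more. With 2 libraries, no test of that difference between genes was possible.

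**Figure D4:**
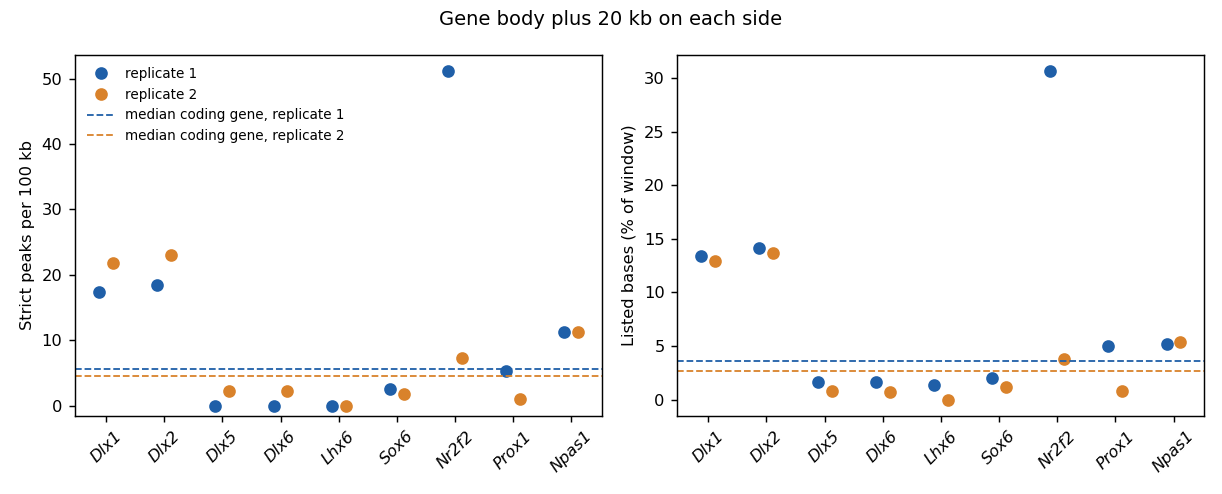
Strict peaks per 100 kb of gene body and flanks (y axis) for each gene (x axis) in replicates 1 and 2, with dashed lines at the medians over protein-coding genes, 5.62 and 4.56. Nr2f2, Dlx1, Dlx2 and Npas1 lie above both lines in both libraries.

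Motifs were searched in 300 bp centred on each site, on both strands, and set beside all strict peaks in windows of the same length. The homeodomain core TAATTA was in 1 of 25 sites at promoters of the 9 genes (4.0%, beside 2.51% and 2.56% of all peaks near starts) and in 3 of 37 sites over 1000 bp from every start (8.11%, beside 6.43% and 7.21%). The SOX motif ACAATG or ATTGTT was in 4 of 25 (16%, beside 11.1% and 11.0%) and in 8 of 37 (21.6%, beside 20.8% and 22.0%). At promoters the shares of several motifs were above those of all peaks near starts: the nuclear receptor motif AGGTCA was in 5 of 25 (20%, beside 10.4% and 10.1%), the bHLH-PAS core ACGTG in 9 (36%, beside 24.4% and 25.6%), the AP-1 site TGANTCA in 3 (12%, beside 6.64% and 6.64%), the E-box forms CAGCTG or CATATG in 6 (24%, beside 20.5% and 19.9%) and the MEF2 motif in 2 (8%, beside 2.94% and 3.08%). The GC box CCGCCC was below, in 9 of 25 (36%, beside 47.8% and 50.1%). Away from starts the order turned for most of these. AGGTCA was in 2 of 37 (5.41%, beside 11.8% and 10.4%), ACGTG in 4 (10.8%, beside 18.02% and 16.9%), AP-1 in 2 (5.41%, beside 17.7% and 19.3%), the E-box forms in 7 (18.9%, beside 29.8% and 29.3%), MEF2 in 1 (2.70%, beside 4.98% and 5.80%) and the GC box in 4 (10.8%, beside 10.2% and 8.89%). The CRE motif was in 0 of 25 (beside 2.10% and 2.46%) and in 0 of 37 (beside 0.497% and 0.483%). The NFI motif was also in 0 of 25 (beside 0.0545% and 0.0361%) and in 0 of 37 (beside 0.0990% and 0.0974%). With shares this low over all peaks, counts of 0 do not set these sites apart. These motifs do not hold one another, and with so few sites each count rests on a handful of sequences.

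After the sequences had been seen, the consensus of CTCF, a zinc-finger protein that bounds chromatin loops, was searched too, over 12 bases with at most 1 mismatch. It was in 6 of the 24 shared sites (25%) and in 4 of the 48 sites of 1 library (8.33%). Among all strict peaks it was in 17.5% and 18.9%, in 21.4% and 23.2% of those over 1000 bp from a start and in 9.86% and 10.2% of those nearer. Of the 24 shared sites, 12 lay over 1000 bp from every start, and the shares were not tested. Over all strict peaks the shares were not split into peaks of both libraries and peaks of 1, so that split has no background here. All 6 matches in shared sites lay in footprints of both libraries: in the site upstream of Dlx2, the Sox6 intron and Sox6 promoter sites, the Npas1 intron site and 2 of the sites upstream of Npas1. How often such matches lie in footprints over all strict peaks was not computed, so this count has no background either. The sequences at Dlx2 and Sox6 had been shown because they held a footprint called in both libraries. In the sequences above, the match reads CCACCAGGTGGC in the Npas1 intron, with no mismatch, and the same letters on the minus strand upstream of Dlx2. The sequences of the Npas1 intron and upstream of Npas1 were chosen for display by their match. A match is a description of the letters and does not show which protein was bound.

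Other genes of interneuron development were counted in the same way, beside shares of 63.4% and 59.3% of all protein-coding genes with a promoter peak. Of 20 further factors, 11 had a promoter peak in replicate 1 and 7 in replicate 2, with 6 in both and 8 in neither. Maf, a bZIP factor of medial eminence interneurons, was among the 3 tallest in both libraries, with heights of 2.03 and 1.65. Nkx2-1 and Sp8, which act in the embryonic eminences or their young neurons, were among those without one. Of 16 genes for interneuron peptides and calcium-binding proteins, 10 and 7 had a promoter peak. Factors of excitatory neurons stood higher: 10 and 7 of 10 genes for deep layer factors and 9 and 8 of 11 for pallial factors had one. Median numbers of strict peaks around the genes were 5 and 3.5 for the further interneuron factors, 3.5 and 2 for the peptides and calcium-binding proteins, 12.5 and 6.5 for deep layer factors and 5 and 2 for pallial factors. The differences between these lists were not tested.

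**Figure D5:**
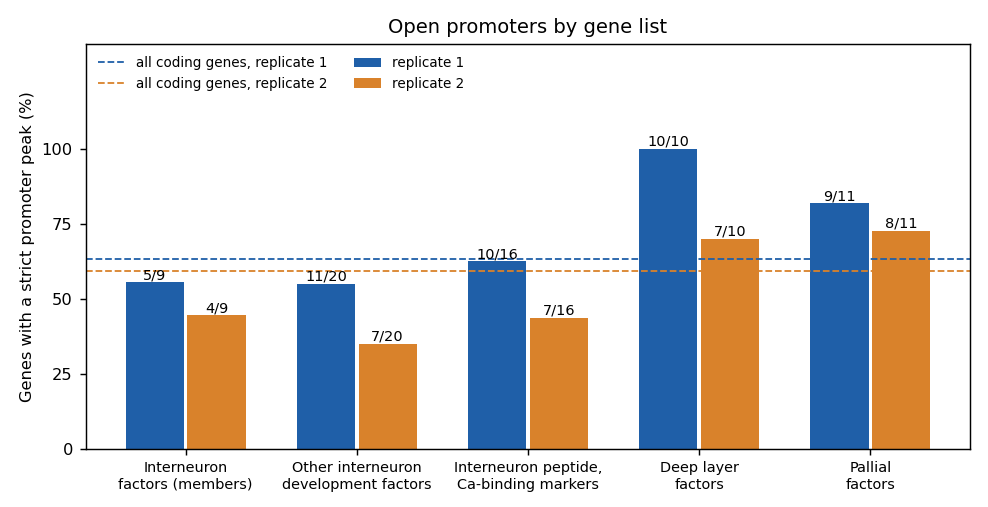
Share of genes with a strict promoter peak (y axis, percent) in 5 gene lists (x axis) for replicates 1 and 2, with the counts over the bars and dashed lines at the shares of all protein-coding genes, 63.4% and 59.3%. The 9 genes stand at 55.6% and 44.4%, and the deep layer and pallial factors lie above the lines.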

How the data were processed

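DNase-seq was deposited for 2 libraries of 1 group. Per the deposited descriptions, files derive from filtered mm10 alignments of the single library, and peaks were called library by library. Neither the aligner nor the callers of peaks and footprints are named there (not given in the sources used here). Peak heights are a signal deposited by the authors, in an unstated unit. The false discovery rate of each base is a deposited q-value, listed under 0.05. Deposited footprints all have the value 0.01, taken here for a p-value threshold of the authors. The smaller, stricter peak set was used. Coordinates lay within the chromosome lengths of GRCm38.p6, the build of GENCODE M21.

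From these files peaks, listed bases and footprints with at least 1 bp in a window were counted with Python 3.11.15 and numpy 2.4.6, and sequences were read with pysam 0.24.0. The windows were 1000 bp around every transcript start, and the gene body with 20000 bp on each side. Percentiles are among protein-coding genes, and windows of like length are within 2-fold. All 9 genes are named with their values. Of their sites, the tallest promoter site and the tallest others are named, and of the further interneuron factors the 3 tallest in both libraries and up to 3 without a promoter peak. Some genes that this rule selects are left out of the text. The genes, gene lists and markers were chosen with earlier results of these data known. The CTCF and CpG searches, the site between Dlx1 and Dlx2, Nr2f1 and Zeb2 were picked after values had been seen. Counting was tested on simulated data, with 500 of 500 genes right. Alternatives changed the peak set, windows, starts, overlap, threshold and library. Reads and coverage were not analysed here. Mapping of CAST/EiJ reads to mm10 was not tested.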

Additional observations from a re-analysis of the deposited data

How the results depend on the processing

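The number of these genes with a promoter peak, 4.5 in the mean of both libraries, became 7 with the larger peak set and 2.5 with only the strict peaks at or above the median height of their library. The median number of strict peaks around them, 5.5, became 1.5 without a flank, 2.5 with a flank of 10000 bp and 10.5 with the larger peak set. Genes with listed bases, 7, became 4.5 for bases under 0.001. Leaving out a library gave 4 to 5 genes with a promoter peak, 4 to 7 peaks around a gene, 5 to 8 genes with a footprint and 6 to 8 with listed bases. The other settings stayed within 1.5 times of these values.

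The tallest promoter peak became 0.946 for Dlx2 and 3.32 for Sox6 with a promoter window of 2500 bp, the latter by taking in the peak at 1110004F10Rik. The promoter call of Nr2f2 in replicate 2 was lost with a window of 500 bp, with the peak centre inside the window and with only the 5′ end of the gene, and that of Sox6 in replicate 2 with the last. Dlx1, called in 1 library, and Dlx5, Dlx6, Lhx6 and Npas1, called in none, gave no mean height. No paired analysis was possible because there was 1 group. Depth was unknown, so a missing peak was not detected at these libraries' depth and is not shown to be absent.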

Other observations

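Zeb2, a zinc-finger factor of migrating interneurons that glia also express, ran against the pattern at Nr2f2: its window held 5 strict peaks in replicate 1 and 24 in replicate 2. The difference of -19 was the lowest of all 21938 protein-coding genes. At Nr2f1 the difference was 21, which 51 protein-coding genes reached or passed. These genes were picked after their values were seen, and the differences between the 2 libraries were not tested.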
